A study of Saccharomyces cerevisiae with 6 samples.

Results

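The tandem gene arrays CUP1, ENA and ASP3 of budding yeast were examined in whole-genome sequencing counts. They hold 9 genes of the 6477 in the gene table used: CUP1-1 and CUP1-2 on chromosome VIII, ENA5, ENA2 and ENA1 on chromosome IV, and ASP3-1, ASP3-2, ASP3-3 and ASP3-4 on chromosome XII. The members were taken by name and placed on sacCer3, and every 1-kb bin that overlapped one of them was used, 23 of 12014 nuclear bins. The 20 kb on each side of an array served as its flanks.

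All 6 libraries came from W303-1a, a standard laboratory strain background, and carried 3 genotype labels. These were orc2ΔN200 and orc2-I194E, both mutants of the N-terminal part of Orc2, and WT. Each was sampled as S phase, 30 min after release from α-factor, and as G1 phase, at 0 min under α-factor. Cells of every label were grown in YPG, arrested in G1, moved to YPD with nocodazole for a G2/M arrest in which orc2-1 is depleted, and arrested in G1 again, and azide stopped elongation at harvest. Orc2 belongs to the origin recognition complex, on which the replicative helicase is loaded at origins, and the study asked how well origins had fired by 30 min. There was 1 library per label and time, so no difference below was replicated or tested, and every interval or standard error (SE) covers counting error only, at 95% for intervals.

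Tandem arrays grow and shrink by unequal recombination between their repeats, so their length differs between yeast strains. CUP1 encodes a small cysteine-rich metallothionein that binds copper, and extra copies raise copper resistance. The ENA genes encode P-type ATPases of the plasma membrane that pump sodium and lithium out of the cell. The ASP3 genes encode a secreted asparaginase that is made when nitrogen is scarce, and they lie among 5S rRNA genes at the edge of the rDNA, the long tandem array that encodes ribosomal RNA.

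Library totals lay between 3235720 and 3376203 counts, and the bins kept for scaling held a median of 255 to 273 counts. At ORC2 and LEU2 the labels orc2-I194E and WT crossed between the times. In the middle bin of ORC2 (chromosome II, 361001 to 362000) the count over the mean of the bins within 20 kb was 2.55 in S and 1.72 in G1 labelled orc2-I194E, and 1.76 in S and 2.52 in G1 labelled WT. At LEU2, a common selection marker, the same crossing was seen, with 2.72 and 1.84 labelled orc2-I194E and 1.99 and 2.87 labelled WT. Libraries labelled orc2ΔN200 had 1.82 and 1.67 at ORC2. Libraries are therefore named by their labels, and S to G1 ratios are also given with the S or the G1 libraries of WT and orc2-I194E exchanged.

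The arrays were mostly blank. Of the 23 bins that overlapped a member, 18 had no count in any of the 6 libraries, 78.3%, where 3.62% of all nuclear bins had none. At most 0.5 times the flank mean in all 6 libraries was found in 20 of the 23, against 6.26% of all nuclear bins, and at least 1.5 times in 0, against 1.17%. For these shares each nuclear bin was set against all bins within 20 kb of it, with no array or rDNA bins left out. Counts in all 6 libraries were found in 4 bins, and these were the outer bins of ENA5 and ENA1 and the bins of CUP1-1 and CUP1-2. The 5 genes with no count in any bin were ENA2 and the ASP3 genes.

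A blank bin in these files does not show that its DNA was missing from the cells. The reference assembly holds RDN18-1 and RDN18-2, copies of the gene for the 18S rRNA that every ribosome needs, and neither had a count in any library. In all, 85 of 6431 nuclear genes had no count in any of their bins in the 6 libraries, 8 of them rRNA genes and 44 with a standard name. How reads that match several places of the assembly were treated is not given in the sources used here, and its part in the blank bins was not tested. The assembly is that of another strain, S288C, and how far array length in W303-1a departs from it was not tested either. The values below are therefore levels in the files, and no copy number of an array relative to the assembly is read from them.

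**Figure D1:**
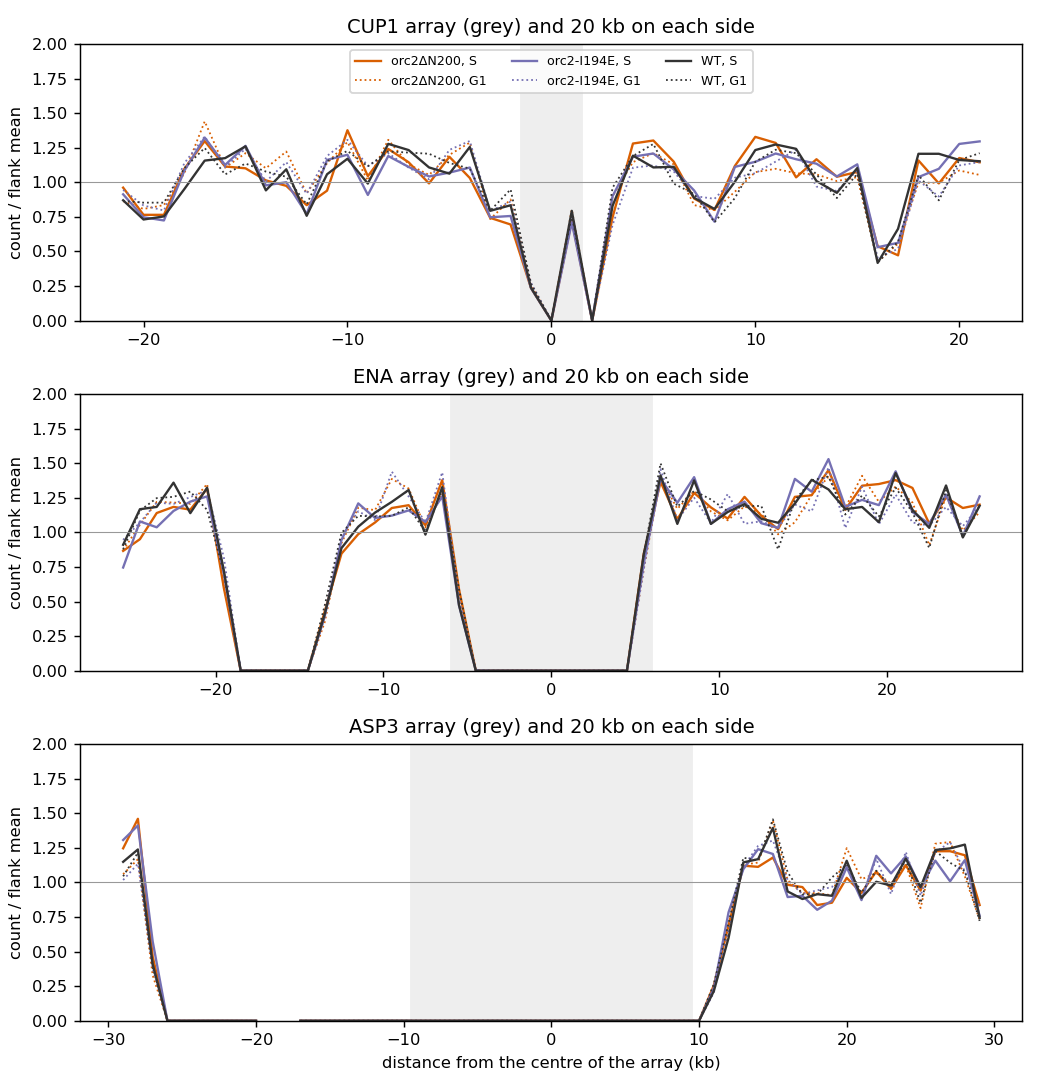
Count per 1-kb bin over the flank mean of the same library, against distance in kb from the centre of each array, with S libraries as solid and G1 libraries as dotted lines and the array from its first to its last bin in grey. The 6 libraries followed each other closely, with blank stretches across the ENA and ASP3 arrays and on both sides of the CUP1-2 bin, and a pair of rDNA bins far above the flank mean is left out of the ASP3 panel.

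CUP1-1 (YHR053C) lies on chromosome VIII at 212535 to 212720, and CUP1-2 (YHR055C) at 214533 to 214718, 1998 bases further on. Each gene is 186 bases long and takes up part of 1 bin, so the counts of these bins also come from other DNA. The bin 212001 to 213000, which holds CUP1-1 and most of the noncoding RNA gene RUF5-1, had 54 counts in S and 64 in G1 labelled orc2ΔN200, 51 and 68 labelled orc2-I194E, and 53 and 64 labelled WT. This was far below the flanks in each library, with levels between 0.235 and 0.273 of the flank mean.

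The bin 214001 to 215000 holds CUP1-2, with the end of YHR054C and most of RUF5-2, and it stood above that of CUP1-1 in every library. It had 166 counts in S and 199 in G1 labelled orc2ΔN200, 154 and 187 labelled orc2-I194E, and 177 and 183 labelled WT. Relative to the flank mean these were 0.725 (0.618 to 0.846), 0.803 (0.694 to 0.924), 0.710 (0.602 to 0.833), 0.752 (0.647 to 0.869), 0.794 (0.680 to 0.921) and 0.761 (0.654 to 0.881), in the same order. The intervals of the 6 libraries overlapped one another. On either side of it, the bins 213001 to 214000 and 215001 to 216000 had no count in any library.

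The genes next to the array had counts on both sides. CIC1, a ribosome biogenesis gene on the left, had 0.628 to 0.806 of the library median over the 6 libraries, and COX6, a cytochrome c oxidase subunit, 0.775 to 0.963. On the right, RSC30, a subunit of the RSC chromatin remodelling complex, had 0.552 to 0.663, with 1 of its 3 bins blank. CPR2, a cyclophilin gene, had at least 0.925.

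ENA5 (YDR038C, 527422 to 530697), ENA2 (YDR039C, 531307 to 534582) and ENA1 (YDR040C, 535192 to 538467) follow each other on chromosome IV at a spacing of 3885 bases. Every gene is 3276 bases long. ENA2 had no count in its 4 bins. In ENA5, only the outermost of 4 bins had counts in all libraries, and the next one had a single count, in the G1 library labelled orc2-I194E. ENA1 had counts only in its outermost bin.

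The outer bin of ENA5, 527001 to 528000, had 146 counts in S and 112 in G1 labelled orc2ΔN200, 112 and 116 labelled orc2-I194E, and 116 and 124 labelled WT. Its level lay between 0.472 and 0.588 of the flank mean, and 0.421 of its bases lie outside ENA5, partly in KRS1. The outer bin of ENA1, 538001 to 539000, had 210 and 159 labelled orc2ΔN200, 184 and 163 labelled orc2-I194E, and 206 and 177 labelled WT. Its level lay between 0.731 and 0.846, and 0.533 of its bases lie outside ENA1. Both bins stood below the flank mean in every library, and their counts could not be divided between the ENA genes and the DNA beside them.

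The genes on either side of the ENA array had counts. KRS1, the cytosolic lysyl-tRNA synthetase, whose last bin is the outer bin of ENA5, had 0.751 to 0.953 of the library median, and EHD3, a mitochondrial hydrolase gene, 0.933 to 1.16. On the right RSM10, a mitochondrial ribosomal protein gene, had 1.02 to 1.21, and YDR042C 0.967 to 1.22. The flank mean of ENA is lowered by 5 blank bins at 514001 to 519000, over YDR034C-D and YDR034C-C.

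ASP3-1 (YLR155C, 469317 to 470405), ASP3-2 (YLR157C, 472969 to 474057), ASP3-3 (YLR158C, 482549 to 483637) and ASP3-4 (YLR160C, 486201 to 487289) lie on chromosome XII, each 1089 bases long. The spacing is 3652 bases within each outer pair and 9580 bases between ASP3-2 and ASP3-3. All 9 of their bins were listed at 0 in every library. They lay within the longest blank stretch of the genome, 461001 to 489000, which also covered most of RDN37-2 and the 5S genes RDN5-2, RDN5-3, RDN5-4 and RDN5-5. The nearest genes on the left, RDN5-2 and YLR154C-H, were blank as well. On the right, RDN5-6 and part of YLR161W share the bin 489001 to 490000, with 61 counts in S and 53 in G1 labelled orc2ΔN200, 54 and 52 labelled orc2-I194E, and 55 and 65 labelled WT.

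Genes with matching roles elsewhere in the genome had counts near those of the DNA around them. The levels of 8 copper genes, among them the second metallothionein gene CRS5, the CUP1 activator CUP2 and the copper transporter CTR1, lay between 0.708 and 1.26 of the bins within 20 kb in all libraries. Of 8 cation genes, which included the sodium/proton antiporter NHA1, the potassium transporter TRK1 and the proton pump PMA1, 7 lay between 0.5 and 1.5. The exception was CRZ1, the calcineurin-responsive activator of ENA1, with 1.54 to 1.69. It had 4 blank bins among its neighbours and 1.06 to 1.15 of the library median. The 8 asparagine and nitrogen genes, including the cytosolic asparaginase ASP1 and the asparagine synthetases ASN1 and ASN2, lay between 0.818 and 1.27. Over all 5435 named genes, 2.26% lay at most at 0.5 and 0.902% at least at 1.5 in all 6 libraries.

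The named genes with levels most like those of each array were found by the distance of log2 levels over the 6 libraries, among 5343 genes. For ASP3 they were MATALPHA1 and MATALPHA2, the α mating-type regulators, then PAU11, COS12 and SNO3. They summed to 0, 1, 0, 0 and 0 counts over the 6 libraries, and their distances were 0.267 to 1.36. With almost no counts, these levels were set by the fixed count added to each bin and by the depth of the flanks. The ASP3 order therefore cannot show which blank genes are most like the array, and no likeness is read from it. For ENA the nearest genes were PAU4, PAU16, PDR18, FLO9 and MST27, with distances of 0.305 to 0.645. FLO9 is a flocculin, PDR18 a transporter of the ABC family, and PAU4 and PAU16 belong to the seripauperin family. For CUP1 they were VEL1, PAU15, RPL8B, HSP82 and RRT13, with distances of 0.209 to 0.255. RPL8B encodes a protein of the large ribosomal subunit and HSP82 an Hsp90 chaperone.

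The level of the arrays was close between labels. For the CUP1 bins together it was 0.481 in S and 0.531 in G1 labelled orc2ΔN200, 0.473 and 0.513 labelled orc2-I194E, and 0.516 and 0.514 labelled WT. The highest library stood 1.12 times above the lowest. For the ENA bins it was 0.120 and 0.104 labelled orc2ΔN200, 0.104 and 0.105 labelled orc2-I194E, and 0.110 and 0.119 labelled WT, a span of 1.15 times.

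Set against WT at the same time, 0 of the 4 bins with counts stood at 0.8 times or below, or at the inverse of 0.8 or above. Among all kept bins, 1.72% and 1.15% lay past the upper and the lower limit for orc2ΔN200 over WT in S, 1.22% and 1.42% in G1, 1.69% and 1.19% for orc2-I194E over WT in S, and 1.05% and 1.23% in G1. For these shares each bin was set against all bins within 20 kb of it, whereas the 4 bins were set against the flank mean. The CUP1-1 bin is not itself a kept bin. With shares this low, 0 of 4 does not set the array bins apart from other bins. The ratio for the CUP1-2 bin was 0.914 (0.738 to 1.13) in S and 1.05 (0.861 to 1.29) in G1 for orc2ΔN200. For orc2-I194E it was 0.895 (0.720 to 1.11) and 0.988 (0.804 to 1.21). The outer bin of ENA5 had the widest ratio, 1.24 (0.972 to 1.59) for orc2ΔN200 over WT in S. Every interval of these 4 bins against WT included 1, and the counts were too few to show a smaller difference than these intervals allow. Both mutant labels were set against the same WT libraries. The crossing of WT and orc2-I194E seen at ORC2 and LEU2 did not show in the CUP1-2 bin, where the ratios were near 1 at both times. An exchange could show there only if the strains differed in that bin, so these ratios do not bear on the crossing.

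**Figure D2:**
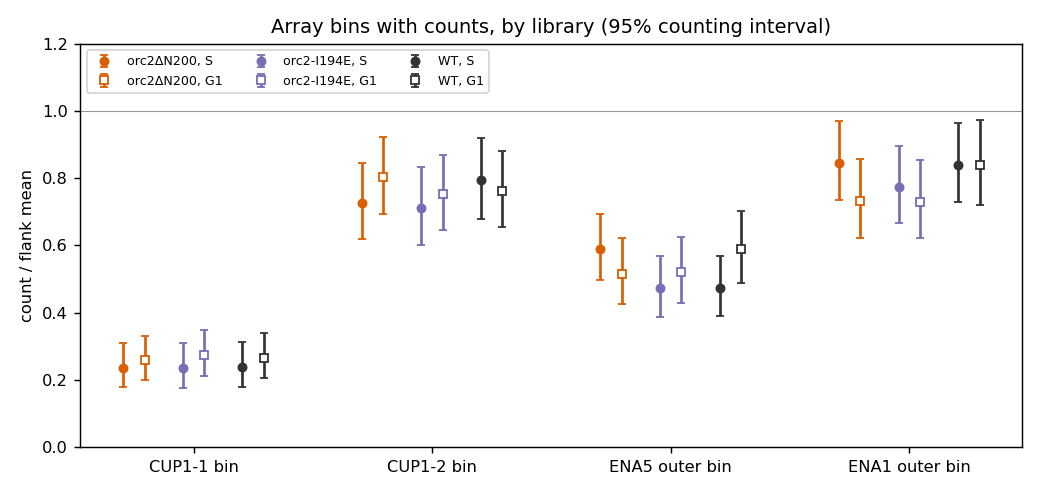
Count over flank mean in each library for the array bins that had counts in all libraries, with filled circles for S, open squares for G1, and bars for 95% counting intervals. The CUP1-1 bin lay between 0.235 and 0.273 and the CUP1-2 bin between 0.710 and 0.803, and libraries of different labels overlapped in every bin.

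Replication by 30 min was read from the log2 of a region's share of the S library over its share of the G1 library, where shares are of the kept nuclear bins and 0 is the genome mean. Most of what can be said concerns the flanks. Summed over both flanks, the DNA around CUP1 was below the genome mean under every label, and the DNA around ENA was above it. The left flank carried most of the CUP1 value, and labelled WT the right flank was below the mean too, at -0.098 (-0.158 to -0.038). The DNA to the right of ASP3 was below the mean labelled orc2-I194E, and its intervals included 0 under the other labels.

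Over both CUP1 flanks the log2 ratio was -0.069 ± 0.021 labelled orc2ΔN200, -0.13 ± 0.021 labelled orc2-I194E and -0.15 ± 0.021 labelled WT (± SE). The left flank carried most of this, at -0.16 ± 0.029, -0.23 ± 0.029 and -0.20 ± 0.029 in the same order. Its labels lay close, with differences from WT of 0.044 (-0.037 to 0.13) for orc2ΔN200 and -0.024 (-0.11 to 0.057) for orc2-I194E. The right flank, which begins with RSC30, was at 0.028 ± 0.030, -0.027 ± 0.031 and -0.098 ± 0.031. There orc2ΔN200 stood above WT by 0.13 (0.042 to 0.21), while orc2-I194E differed from WT by 0.071 (-0.014 to 0.16). With the S libraries of WT and orc2-I194E exchanged these became 0.091 and 0.00027, and with the G1 libraries exchanged 0.091 and -0.00027.

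Single bins were also compared with all kept bins. Of 39 kept bins in the CUP1 flanks, 9 lay at -0.2 or lower labelled orc2ΔN200, 13 labelled orc2-I194E and 16 labelled WT, where 13.1%, 13.6% and 17.7% of all kept bins did. At 0.2 or higher there were 2, 1 and 1, against 12.7%, 13.5% and 15.2%. Neighbouring bins share their replication, so these counts are a description. The CUP1 bins themselves had -0.21 ± 0.13, -0.25 ± 0.14 and -0.15 ± 0.13, and differed from their flanks by -0.14 (-0.40 to 0.12), -0.12 (-0.39 to 0.15) and 0.0052 (-0.26 to 0.27). Next to the array, CIC1 had -0.23 ± 0.11, -0.27 ± 0.11 and -0.25 ± 0.10, lower than the genome mean under all labels. RSC30 had -0.082 ± 0.093, 0.083 ± 0.096 and -0.24 ± 0.093.

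Over both ENA flanks the log2 ratio was 0.24 ± 0.021 labelled orc2ΔN200, 0.16 ± 0.021 labelled orc2-I194E and 0.17 ± 0.021 labelled WT. Of 34 kept bins, 24, 13 and 13 lay at 0.2 or higher, against the 12.7%, 13.5% and 15.2% of all kept bins given above, and 0, 1 and 0 at -0.2 or lower. The right flank was at 0.29 ± 0.027, 0.23 ± 0.028 and 0.17 ± 0.028. There orc2ΔN200 stood above WT by 0.12 (0.045 to 0.20), and orc2-I194E differed from WT by 0.060 (-0.017 to 0.14). Exchanging the S libraries brought these to 0.070 ± 0.039 and -0.042 ± 0.039, so that the orc2ΔN200 difference was no longer beyond counting error, and exchanging the G1 libraries to 0.11 ± 0.039 and 0.042 ± 0.039.

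The left ENA flank was at 0.17 ± 0.034 labelled orc2ΔN200, 0.052 ± 0.034 labelled orc2-I194E and 0.18 ± 0.034 labelled WT. Here orc2ΔN200 differed little from WT, by -0.017 (-0.11 to 0.077), and orc2-I194E was lower by -0.13 (-0.22 to -0.037). The lower value did not hold when labels were exchanged, with -0.034 for the S libraries and 0.034 for the G1 libraries. The ENA bins with counts had 0.44 ± 0.12, 0.15 ± 0.12 and 0.053 ± 0.12. They differed from their flanks by 0.20 (-0.031 to 0.43), -0.0089 (-0.25 to 0.23) and -0.12 (-0.35 to 0.11), and each of these intervals included 0. Between labels, the ENA bins of orc2ΔN200 stood above those of WT by 0.39 (0.065 to 0.71), and those of orc2-I194E by 0.094 (-0.23 to 0.42). The orc2ΔN200 difference was 0.45 with the S libraries of the other labels exchanged and 0.23 ± 0.17, within counting error, with their G1 libraries exchanged. It rests on the outer bins of ENA5 and ENA1 alone. KRS1 had 0.33 ± 0.079, 0.047 ± 0.079 and 0.11 ± 0.080, and RSM10 had 0.18 ± 0.085, 0.19 ± 0.084 and 0.054 ± 0.084.

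**Figure D3:**
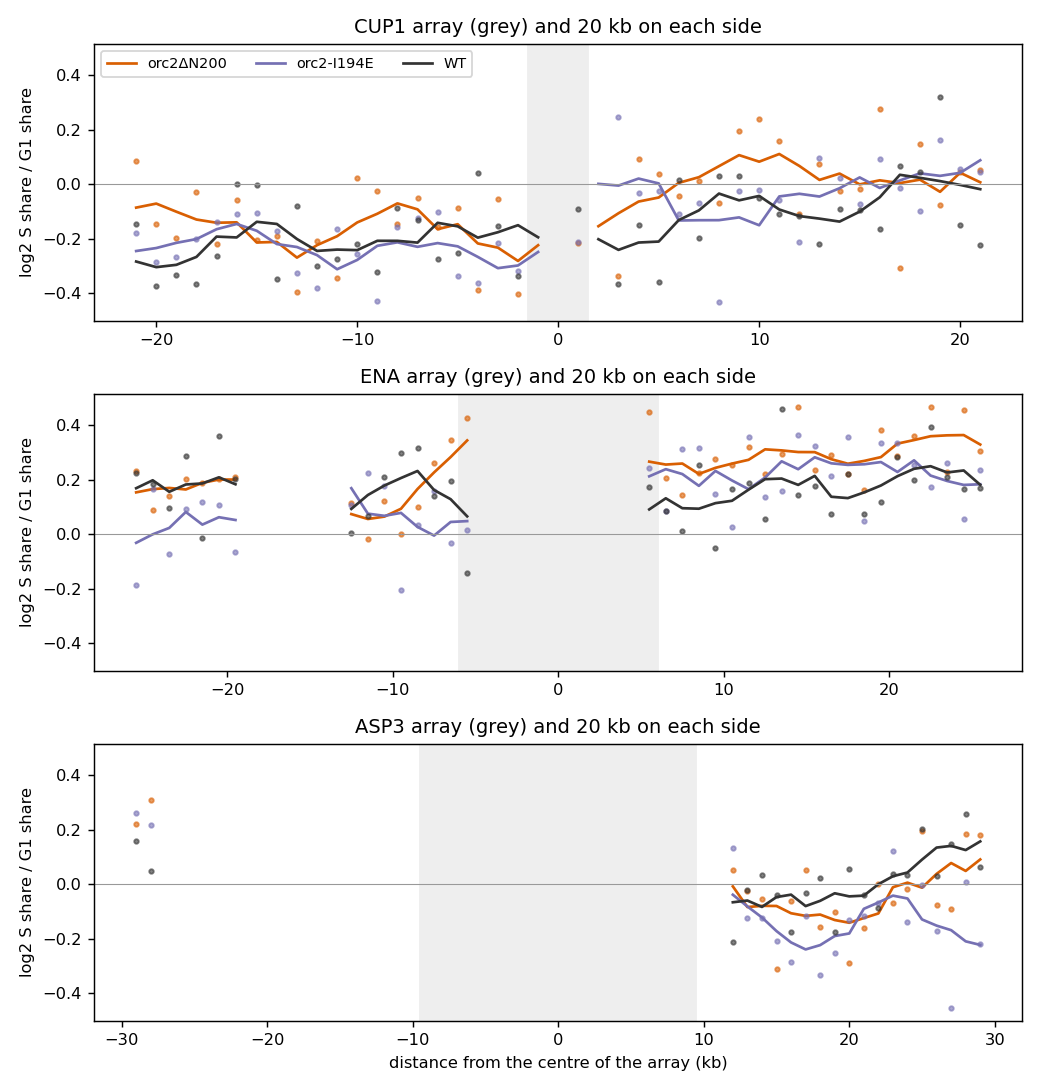
Log2 of S share over G1 share per kept 1-kb bin (points) and as a running mean of 5 bins (lines), against distance in kb from the centre of each array, by label. Lines for the left CUP1 flank lie mostly below 0 and those for the right ENA flank mostly above 0 under all labels, and few points stand inside the arrays because most of their bins were blank.

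The ASP3 array gave no ratio, and its left flank is almost all rDNA. With rDNA bins left out, 2 bins remained on the left and 19 on the right. The left pair lies on the far side of the rDNA from ASP3, so its distance from the array holds for the assembly only. The left pair was at 0.27 ± 0.083 labelled orc2ΔN200, 0.24 ± 0.085 labelled orc2-I194E and 0.10 ± 0.085 labelled WT. Over both sides the log2 ratio was -0.014 ± 0.029 labelled orc2ΔN200, -0.097 ± 0.029 labelled orc2-I194E and 0.023 ± 0.028 labelled WT. The right flank, which holds the mitochondrial protease gene MAS1, was at -0.052 ± 0.030 labelled orc2ΔN200, -0.14 ± 0.031 labelled orc2-I194E and 0.013 ± 0.030 labelled WT. Label orc2-I194E was lower than WT by -0.15 (-0.24 to -0.070), and orc2ΔN200 differed by -0.064 (-0.15 to 0.019). Exchanging the S libraries turned the sign of both, to 0.12 and 0.075, and exchanging the G1 libraries left -0.12 and -0.050. MAS1 had -0.14 ± 0.069, -0.15 ± 0.069 and -0.010 ± 0.067. Of 20 kept bins on both sides, 2, 2 and 2 lay at 0.2 or higher and 2, 6 and 1 at -0.2 or lower, against the shares of all kept bins given above.

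Within the flanks the ratio was also summed over blocks of 5 kb, each with an SE of 0.052 to 0.076. The 4 blocks of the left CUP1 flank lay between -0.22 and -0.10 labelled orc2ΔN200, between -0.27 and -0.20 labelled orc2-I194E and between -0.29 and -0.13 labelled WT, and the order of the labels differed from block to block. Those of the right CUP1 flank lay between -0.039 and 0.12, between -0.10 and 0.036, and between -0.21 and -0.0040. The 4 blocks of the right ENA flank were above 0 under every label, at 0.22 to 0.36, 0.18 to 0.27 and 0.099 to 0.22. In the left ENA flank, the blocks 507001 to 512000 and 522001 to 527000 had enough kept bins. They had 0.17 and 0.17 labelled orc2ΔN200, 0.036 and 0.018 labelled orc2-I194E, and 0.15 and 0.24 labelled WT. The orc2-I194E values there were within counting error of 0. Blocks to the right of ASP3 lay between -0.13 and 0.058, between -0.24 and -0.063, and between -0.078 and 0.14.

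**Figure D4:**
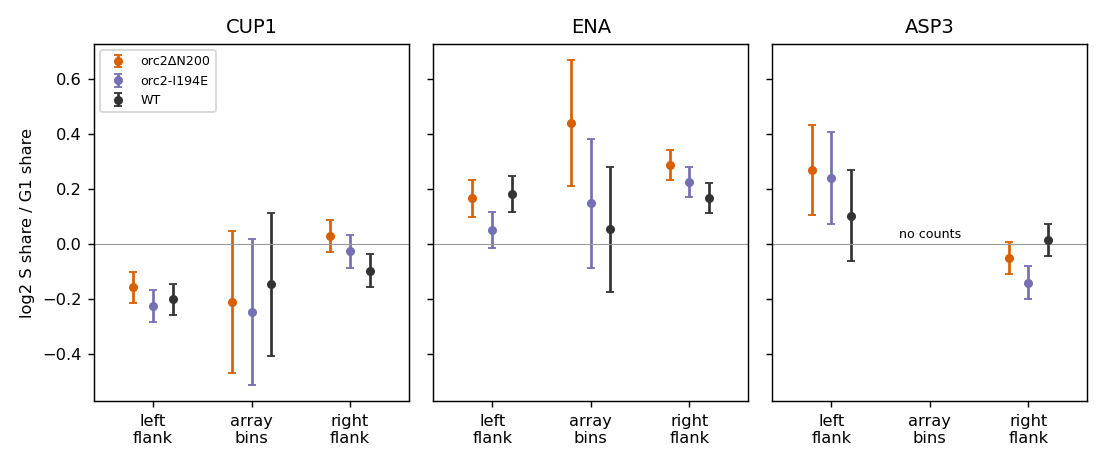
Log2 of S share over G1 share summed over the left flank, the array bins and the right flank of each array, by label, with 95% counting intervals. The left CUP1 flank lies below 0 and the right ENA flank above 0 under every label. Intervals of the CUP1 array include 0 under every label, as do those of the ENA array labelled orc2-I194E and WT and of the left ENA flank labelled orc2-I194E, and the wide intervals of the array bins reflect the few bins with counts.

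Single flank bins were compared with WT as well. In the CUP1 flanks orc2ΔN200 was above WT by 0.2 or more in 13 of 39 bins and below it in 5, where 19.5% and 19% of all kept bins were. For orc2-I194E the counts were 6 and 3 of 39, against 21.1% and 20.4%. The ENA flanks had 6 above and 2 below of 34 for orc2ΔN200, and 3 and 8 for orc2-I194E. The ASP3 flanks had 2 and 3 of 20 for orc2ΔN200, and 1 and 6 for orc2-I194E. Bins above WT for orc2ΔN200 at CUP1 were more frequent than among all kept bins. The 6 of 20 below WT for orc2-I194E at ASP3 exceeded that share by few bins, so no excess is read from it. All other counts were near the shares of all kept bins or below them. Neighbouring bins share their replication, so these counts are a description. They were not recounted with libraries exchanged, and exchanging the S libraries turned the sign of the summed orc2-I194E difference to the right of ASP3.

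Of the 38 bins from 451001 to 489000 on chromosome XII, only 3 had counts in any library, and 2 of these stood far above the flanks. The bin 460001 to 461000, which runs from beyond RDN5-1 into the end of RDN37-2, had 15966 counts in S and 14090 in G1 labelled orc2ΔN200, 17351 and 14933 labelled orc2-I194E, and 14595 and 14854 labelled WT. In G1 this was 56.6, 58.5 and 60.6 times the ASP3 flank mean. The bin 459001 to 460000, with the 5S gene RDN5-1, had 5579 and 4436, 5453 and 4438, and 4626 and 4677 in the same order. In the assembly these bins lie within 20 kb to the left of ASP3-1, and their distance in the cells was not measured. As rDNA they were left out of the ASP3 flank values given above.

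Both of these rDNA bins had a larger share in S than in G1 under the mutant labels and a smaller one under WT. In the bin 460001 to 461000 the log2 ratio was 0.23 ± 0.017 labelled orc2ΔN200, 0.28 ± 0.016 labelled orc2-I194E and -0.070 ± 0.017 labelled WT. In the bin with RDN5-1 it was 0.38 ± 0.029, 0.36 ± 0.029 and -0.060 ± 0.030. For orc2-I194E and WT the ratio went mostly with the S library and to a lesser part with the G1 library. With the S libraries exchanged, the ratios of the bin 460001 to 461000 were -0.024 labelled orc2-I194E and 0.24 labelled WT. Those of the RDN5-1 bin were 0.069 and 0.23. With the G1 libraries exchanged they were 0.24 and -0.024, and 0.23 and 0.069. The remaining bin with counts in this span, 451001 to 452000, had far fewer. Its log2 ratio was 0.48 ± 0.21 labelled orc2ΔN200, 0.50 ± 0.19 labelled orc2-I194E and 0.10 ± 0.20 labelled WT, so WT was not below 0 there.

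**Figure D5:**
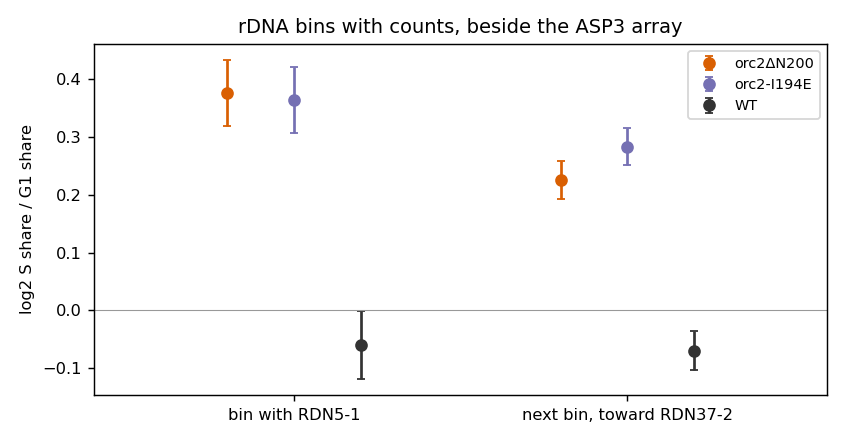
Log2 of S share over G1 share in the pair of rDNA bins far above the flank mean that lie within 20 kb of the ASP3 array in the assembly, by label, with 95% counting intervals. Both mutant labels lie between 0.23 and 0.38, and WT lies at -0.060 and -0.070.

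Genes of the same roles at other places stood on both sides of 0 by 30 min. Of the 8 copper genes, 0 were at 0.2 or higher and 1 at -0.2 or lower labelled orc2ΔN200, 2 and 0 labelled orc2-I194E, and 1 and 2 labelled WT. Of the 8 cation genes these were 1 and 0, 2 and 0, and 1 and 0, and of the 8 asparagine and nitrogen genes 0 and 1, 0 and 2, and 1 and 2. Over the 5354 named genes with enough counts, 9.04% and 7.99%, 10.2% and 9.08%, and 11.6% and 15.3% were, in the same order. CRS5 had -0.38 ± 0.13 labelled orc2ΔN200, -0.053 ± 0.12 labelled orc2-I194E and -0.56 ± 0.13 labelled WT, and NHA1 had 0.24 ± 0.063, 0.29 ± 0.066 and 0.19 ± 0.066.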

How the data were processed

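Whole-genome sequencing libraries of W303-1a were used, 1 per label and time. Each deposited file lists the bins of 1 kb that hold a count, with that count as a whole number. Per the submitters' processing notes, Bowtie2 2.5.3, Picard 2.27.5, SAMtools 1.18, bedtools 2.31.0, R 4.3.0 and sacCer3 were used, with no roles, mapping quality filter or duplicate rule given. Unlisted bins up to the last listed bin of a chromosome were taken as 0. Genes came from RefSeq's table of assembly R64, and all 9 members matched. Kept bins (11273) lay outside 451001 to 490000 on chromosome XII, had a count in every library, and had G1 counts of 0.3 to 3 times the library median. rDNA bins were left out of the ASP3 flanks. Intervals for levels are exact (Clopper-Pearson), and those for ratios between libraries and log2 ratios use SEs from the counts. Genes named were the members, the 2 nearest genes on each side, 3 lists of 8 genes and the 5 genes with the nearest levels (0.5 counts per bin added). CRS5 and NHA1 are list members singled out, and the rDNA bins were chosen, after their values were seen. Members and lists were chosen with earlier results of these data known. The calculation of levels was tested on simulated data. Python 3.11.15, numpy 2.4.6, pandas 2.3.3 and SciPy 1.17.1 were used.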

Additional observations from a re-analysis of the deposited data

Results flagged for a closer look

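The pair of rDNA bins beside the ASP3 array had log2 ratios of S to G1 above 0 under the mutant labels and below 0 under WT, each beyond its counting interval. In the bin 460001 to 461000 the difference from WT was 0.30 for orc2ΔN200 and 0.35 for orc2-I194E. In the bin with RDN5-1 it was 0.44 and 0.42. The difference between labels was not tested, since each label had 1 library per time. Both mutant labels share the WT libraries, and exchanging the S libraries of WT and orc2-I194E brought the differences to -0.012 and -0.26, and to 0.14 and -0.17. Exchanging their G1 libraries left 0.25 and 0.26, and 0.31 and 0.17.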

How the results depend on the processing

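Of 103 alternatives computed, 84 stayed within the counting interval of the reported value, but some of these could not move. Leaving out blank flank bins or adding blank array bins does not change a summed log2 ratio, and the blank ASP3 array stays at 0. The exchanges under WT and orc2-I194E also repeat the same pairs of libraries, so the 103 are not independent. The mean level over the 6 libraries was 0.504 for CUP1, and 0.473 with the flank median, 0.336 with all bins from the first to the last and 0.447 with the library median as the unit. For ENA it was 0.110, and 0.0962 with the flank median, 0.0479 with bins covered by genes to at least 0.5, 0.0963 without blank flank bins and 0.0960 with the library median, which also widened the span between libraries to 1.37 times. No CUP1 bin is covered to that share. The ASP3 level was 0 under each alternative. For the ENA flanks, the flank median gave a log2 ratio of 0.24 labelled orc2-I194E, against the reported 0.16. For the ASP3 flanks, with -0.014 labelled orc2ΔN200, -0.097 labelled orc2-I194E and 0.023 labelled WT as reported, flanks of 10 kb gave -0.087 labelled orc2ΔN200, -0.17 labelled orc2-I194E and -0.065 labelled WT. Keeping rDNA gave 0.21, 0.23 and -0.048. The flank median gave -0.031 labelled orc2-I194E and -0.072 labelled WT. Exchanging the S libraries gave 0.016 and -0.091. The sign thus turned for orc2-I194E with rDNA kept and with the S libraries exchanged, for orc2ΔN200 with rDNA kept, and for WT under each of these 4 settings. Apart from rDNA, which outweighs the other flank bins by its counts, and the exchanges, which swap libraries, the cause was not tested. The planned count of repeat units relative to the assembly came to -1.34 for CUP1, -2.20 for ENA and -5.48 for ASP3 (mean of 6 libraries), which blank bins set, so it is not a copy number. No paired analysis was possible because each label and time had 1 library, so no replicate numbers pair samples between labels; the S to G1 ratio is itself taken within a label, and the 3 labels are different genotypes, not replicates. The depth of about 260 counts per bin limits a single bin, and the 4 array bins with counts limit what can be said of the arrays.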
